A study of Rattus norvegicus with 2 samples.

Results

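The genes described here are 59 listed genes of DNA double-strand break repair and of the Fanconi anemia pathway. They were chosen by name: a gene counts when its symbol stands in the first column of the authors' deposited result table. Of the 59 symbols, 45 are rows of that table of 17327 genes, and all 45 were read at a mean of at least 20 normalised reads. They fall into 18 of 21 listed genes of homologous recombination, 8 of 14 Fanconi genes, 8 of 9 end joining genes and 11 of 15 damage signalling genes. The other 14 (Rad51b, Xrcc3, Blm, Brip1, Fancf, Fancg, Fanci, Fancm, Slx4, Prkdc, Tp53bp1, Atr, Topbp1 and Rad9a) were not analysed here.

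The study sequenced RNA of cultured rat myometrial progenitor cells, precursors of the muscle wall of the uterus, in a group labelled DES-exposed and a group labelled VEH-exposed. In work on developmental exposure these abbreviations usually stand for the synthetic estrogen diethylstilbestrol and for the vehicle; the labels give no dose, age, strain or time of exposure. Each group is 1 library (n = 1) of cells pooled from 5 animals at passages 1 to 3, so the spread between animals and between cultures cannot be seen, and no test was run. The labels name the rat as the organism, although the design text calls the cells murine.

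The table gives a mean and a fold change but not which group is the numerator. Read counts of both libraries were recovered from it, and the libraries are called numerator and denominator library after their place in the fold change. A gene lower in the numerator library is therefore lower in 1 of the groups, and which group that is cannot be told. The numerator library held 106599579 reads in the listed genes and the denominator library 104793348. Smooth muscle markers summed to 1401440 normalised reads in the numerator library and to 800144 in the denominator library, with 1 of 6 higher (Tagln, 2.57-fold) and 0 lower. Inside the limit, Des had a ratio of 0.925, Acta2 had 447541 reads in the numerator and 279748 in the denominator library, and Myh11 222372 in the numerator and 135751 in the denominator library. Mesenchymal progenitor markers summed to 658585 in the numerator and 550995 in the denominator library, with 1 of 5 higher and 2 lower. The pan-leukocyte gene Ptprc, the T cell gene Cd3e, the epithelial gene Cdh1 and the endothelial gene Kdr are listed at 0. The other endothelial markers summed to 644 normalised reads in the numerator and 8077 in the denominator library, with 3 of 4 lower and 1 higher. Pericyte markers summed to 31829 in the numerator and 224016 in the denominator library, with 3 of 4 lower and 0 higher. Epithelial markers summed to 3010 in the numerator and 1568 in the denominator library, with 1 of 3 lower and 1 higher. Blood markers summed to 295.3 in the numerator and 399.6 in the denominator library, with 2 of 3 lower and 1 higher. The part of these cell types in the results was not tested.

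A double-strand break is mended by 2 main routes. Homologous recombination trims the broken ends and copies the lost sequence from the sister chromatid, so it works mostly in S and G2 phase, when that copy exists. End joining holds the ends with the Ku proteins and ligates them at any phase. The Fanconi pathway unhooks crosslinks between the strands during replication and hands the break to recombination. Kinases such as ATM and CHK1 report the damage and hold the cell cycle.

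A gene was called higher or lower when its normalised reads differed at least 2-fold and 1 lay outside the 95% interval of their ratio. That interval comes from the share of a gene's reads that fell in the numerator library, by the exact Clopper-Pearson method. Intervals cover counting error only: the reads carry no molecular identifiers, so they are not independent molecules, and there is 1 library per group. Reads are given as recovered, and ratios and folds are of reads divided by the size factors. In RNA from a mixed culture, fewer cells of a type and less RNA per cell cannot be told apart. By this rule 9 of 45 genes (20%) were lower in the numerator library, where 12.8% of all 11212 genes tested were lower. In the other direction 1 of 45 (2.22%) was higher, where 13.9% of all genes were. On chromosomes 4 and 7, 22.0% and 23.2% of genes tested were lower. All 4 repair genes on chromosome 4 were called lower, and 0 of 2 on chromosome 7. Without both chromosomes 5 of 39 repair genes were lower (12.8%), close to the 11.4% of the 9863 genes tested elsewhere. In that run 1 was higher (2.56%, against 14.7%). With ratios centred on the median of each chromosome, 10 of 45 were lower. The share of all genes called lower under that centring is not given here, so this count has no background. At a limit of 1.5-fold, 19 of 45 were lower (42.2%, against 22.8% of all genes) and 5 higher (11.1%, against 22.6%). At 3-fold, 6 were lower (13.3%, against 7.18%) and 0 higher (against 9.16%). Leaving the limit aside, 34 of 45 had a ratio below 1, or 75.6%, against 49.6% of all genes. The median log2 ratio was -0.49 over the 45 genes and 0.01 over all genes.

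The 4 classes differed in these values, and that difference was not tested. Of all genes tested, 12.8% were lower, 13.9% were higher and 49.6% had a ratio below 1. Of the homologous recombination genes, 6 of 18 were lower (33.3%) and 0 higher, with a median log2 ratio of -0.83 and 17 of 18 ratios below 1. Without chromosomes 4 and 7, 3 of 15 were lower, against 11.4% of all genes tested elsewhere, and their median was -0.60. The Fanconi genes had 2 of 8 lower (25%), 0 higher and a median of -0.60. Among the end joining genes 1 of 8 was lower and 1 higher (12.5% each, near the shares of all genes), with a median of -0.15. None of the 11 damage signalling genes passed 2-fold in either direction (median -0.34).

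**Figure D1:**
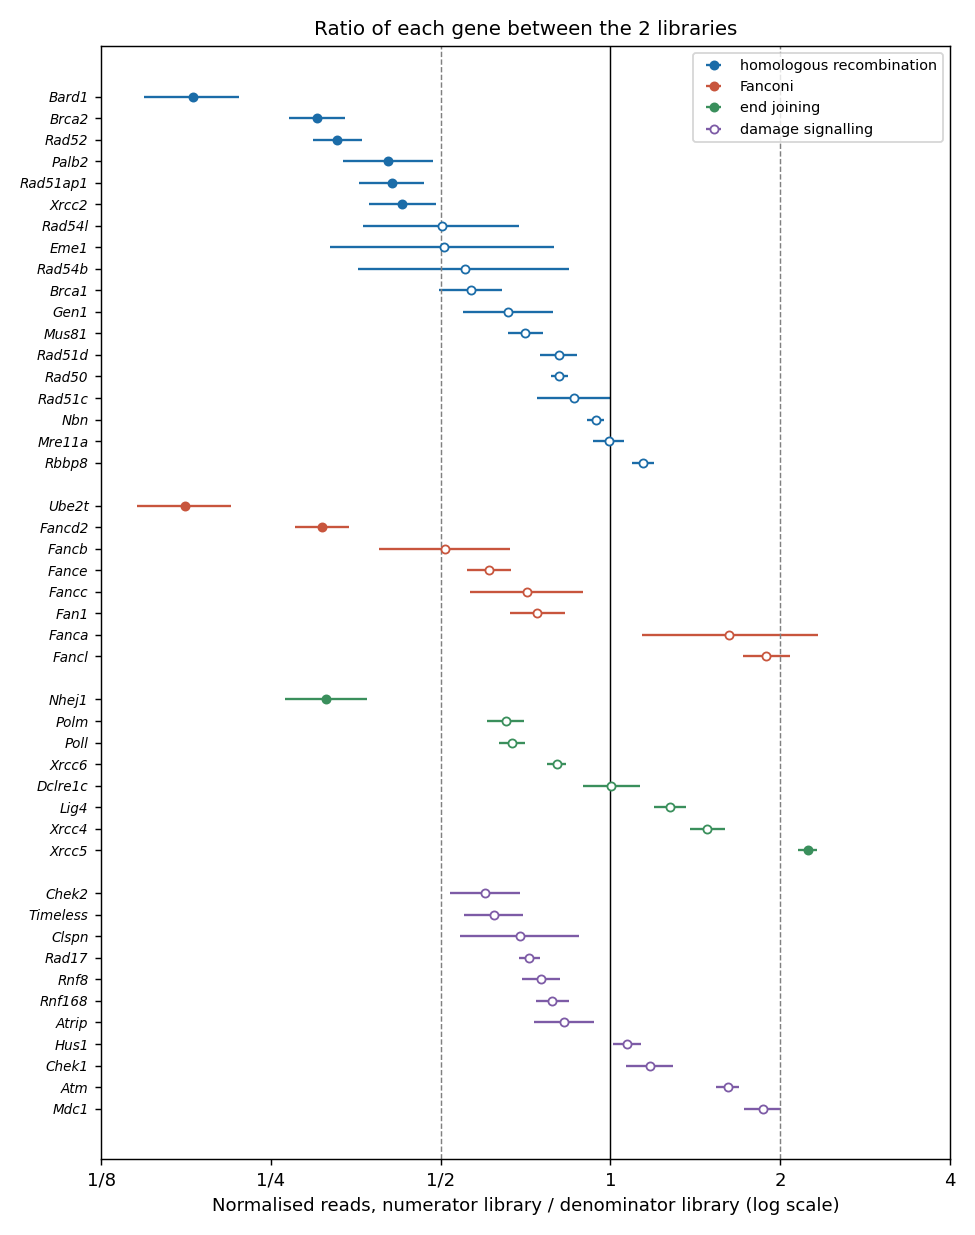
Ratio of normalised reads, numerator over denominator library, on a log axis for each of the 45 genes, coloured by class, with 95% Clopper-Pearson intervals that cover counting error only; filled points passed the 2-fold rule, and dashed lines mark 2-fold. In homologous recombination 17 of 18 points lie below 1, while the end joining points lie on both sides of it.

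**Figure D2:**
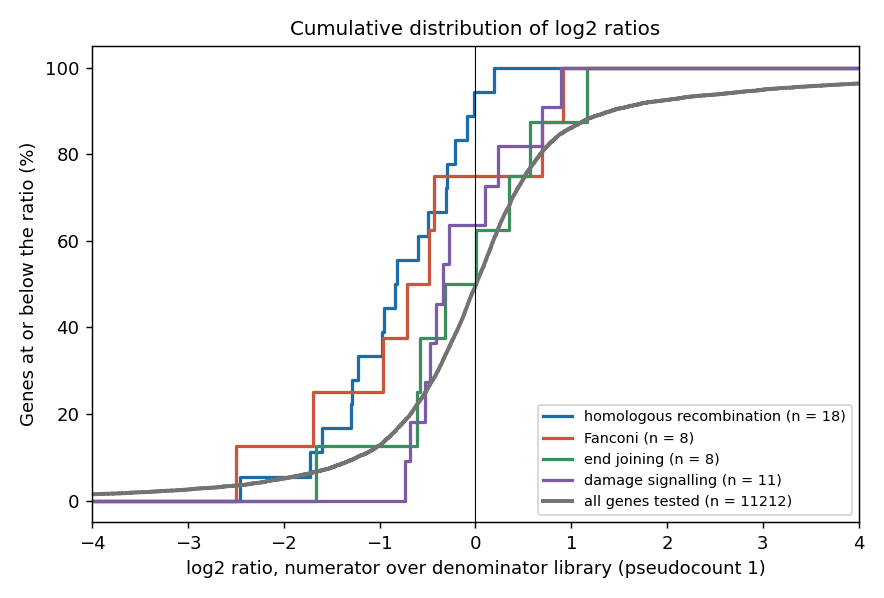
Cumulative percentage of genes by log2 ratio (numerator over denominator library, pseudocount of 1 normalised read) for the 4 classes and for all 11212 genes tested. The homologous recombination curve stands left of the curve of all genes over most of its range, with a median of -0.83 against 0.01.

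Promoters were taken from RefSeq (GRCr8), from 250 bases before to 50 after each start, and were found for 38 of the 45 genes. They were searched on both strands for 4 spellings of an E2F-type motif, TTTCCCGC, TTTGGCGC, TTTCGCGC and TTTGCCGC; E2F factors are known to drive genes of S phase. Of the 38 promoters 9 held a match (23.7%), against 4.19% of 8981 promoters of genes tested and 2.82% of 18999 protein-coding promoters. The matches did not follow the ratios: 2 of 8 promoters of genes called lower held one, 7 of 29 of genes within the limit, and the 1 of a gene called higher did not. The motif CCAAT was found in 14 of 38 promoters (36.8%, against 37.6% of genes tested) and TTTGAA or TTCGAA in 6 (15.8%, against 13.2%). A match is a run of letters and not evidence of binding.

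The 60 bases around the match are shown for the 2 genes called lower that hold one and for 2 genes inside the limit, to let the same letters be seen beside different ratios. Each is written 5′ to 3′ on the strand of its gene, with the match in capitals. Bard1 (chr9:80143927-80143986, minus strand, log2 ratio -2.45) and Fancd2 (chr4:148234691-148234750, plus strand, -1.70) come first, then Timeless (chr7:1239424-1239483, plus strand, -0.69) and Chek1 (chr8:44629838-44629897, minus strand, 0.23), all in GRCr8.
Bard1: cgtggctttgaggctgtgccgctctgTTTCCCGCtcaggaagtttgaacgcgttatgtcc
Fancd2: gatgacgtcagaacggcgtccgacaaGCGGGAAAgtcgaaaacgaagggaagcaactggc
Timeless: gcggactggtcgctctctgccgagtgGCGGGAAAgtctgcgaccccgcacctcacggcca
Chek1: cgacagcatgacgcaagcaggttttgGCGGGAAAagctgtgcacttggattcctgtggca
The match is TTTCCCGC as written in Bard1 and its reverse complement in the other 3. It lies 205 bases before the start in Bard1 (position -205 for its first base) and at or near the start in Fancd2 (9), Timeless (0) and Chek1 (-28).

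Recombination starts with end resection, whose 4 genes had ratios from 0.812 to 1.14. MRE11, RAD50 and NBN form the complex that senses and trims the ends, and CtIP, encoded by Rbbp8, switches its nuclease on. Mre11a had 1955 reads in the numerator library, against 1934 in the denominator library, a ratio of 0.993 (interval 0.932 to 1.06). Nbn had 6551 reads in the numerator and 6832 in the denominator library (0.942, interval 0.910 to 0.974). Rad50 had 5773 reads in the numerator and 6980 in the denominator library (0.812, interval 0.784 to 0.841). Rbbp8 stood on the other side, with 4117 reads in the numerator library, against 3533 in the denominator library (1.14, interval 1.09 to 1.20), the only recombination gene with a ratio above 1.

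The BRCA genes act next: BRCA1 pairs with BARD1 in a ubiquitin ligase, and PALB2 joins BRCA1 to BRCA2, which readies the resected end for strand invasion. All 4 had ratios below 1 (against 49.6% of all genes tested) and 3 were called lower (against 12.8%). Bard1 had 127 reads in the numerator library, against 687 in the denominator library, and was 5.51-fold lower (interval 4.55 to 6.71); 3.59% of all genes tested had a ratio as low or lower. Brca2 had 397 reads in the numerator and 1291 in the denominator library, and was 3.31-fold lower (interval 2.96 to 3.71). Palb2 had 167 reads in the numerator and 406 in the denominator library, and was 2.48-fold lower (interval 2.06 to 2.98). Brca1 had 379 reads in the numerator and 658 in the denominator library and, at 1.77-fold lower (interval 1.56 to 2.01), stayed within the limit. The balance inside the BRCA1-BARD1 pair therefore differed: there were 0.335 reads of Bard1 per read of Brca1 in the numerator library, against 1.04 in the denominator library, 3.12-fold fewer (Wald interval of counting error 2.48 to 3.91).

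Xrcc2, Rad51c and Rad51d, whose products work together in recombination, and the accessories of strand exchange had ratios from 0.328 to 0.863. Of these 7 genes, 3 were called lower (against 12.8% of all genes tested): Xrcc2, Rad52 and Rad51ap1. All 3 lie on chromosome 4, where 22.0% of genes tested were lower. Centred on the median of that chromosome, Rad52 stayed lower (-1.23), while Rad51ap1 (-0.91) and Xrcc2 (-0.84) were inside the limit. Xrcc2 had 307 reads in the numerator library, against 705 in the denominator library, and was 2.34-fold lower (interval 2.04 to 2.68). Its partners Rad51d (1266 reads in the numerator and 1534 in the denominator library, ratio 0.811) and Rad51c (327 reads in the numerator and 372 in the denominator library, ratio 0.863, interval 0.742 to 1.00) stayed within the limit. Rad52, whose product anneals complementary strands, had 522 reads in the numerator and 1563 in the denominator library, and was 3.05-fold lower (interval 2.76 to 3.37). Rad51ap1, which encodes a protein that aids strand invasion, had 326 reads in the numerator and 782 in the denominator library, and was 2.44-fold lower (interval 2.14 to 2.79).

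Rad54l and Rad54b, which encode motor proteins that help strand invasion, lay close to the limit at low depth. Rad54l had 62 reads in the numerator library, against 121 in the denominator library, and was 1.99-fold lower (interval 1.45 to 2.74). Rad54b had 36 reads in the numerator and 64 in the denominator library, and was 1.81-fold lower (interval 1.19 to 2.80). Both intervals hold values on either side of 2-fold, so at this depth the call cannot be settled. The nucleases that cut recombination intermediates were also within the limit. Eme1 had 31 reads in the numerator and 60 in the denominator library, and was 1.97-fold lower (interval 1.26 to 3.15). Its partner Mus81 had 1389 reads in the numerator and 1929 in the denominator library (ratio 0.707), and Gen1 had 202 in the numerator and 301 in the denominator library (ratio 0.659).

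In the Fanconi pathway the largest difference was in the step that tags FANCD2 with ubiquitin. UBE2T is the ubiquitin-conjugating enzyme of this step, FANCL the ligase subunit that recruits it, and FANCD2 the protein that is tagged. Ube2t had 129 reads in the numerator library, against 721 in the denominator library, and was 5.69-fold lower (interval 4.71 to 6.92), the lowest ratio of the 45 genes; 3.51% of all genes tested were as low. Fancd2 had 419 reads in the numerator and 1336 in the denominator library, and was 3.25-fold lower (interval 2.91 to 3.63). Fancl, in the other direction, had 1239 reads in the numerator library, against 644 in the denominator library, and was 1.89-fold higher (interval 1.72 to 2.08), just inside the limit. Reads of Ube2t per read of Fancl were 0.104 in the numerator library, against 1.12 in the denominator library, 10.8-fold fewer (Wald interval 8.71 to 13.3).

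The other subunits of the ligase, the Fanconi core complex, spread over both directions. Fancb had 87 reads in the numerator and 168 in the denominator library, and was 1.97-fold lower (interval 1.51 to 2.58). Fance had 807 reads in the numerator and 1300 in the denominator library (ratio 0.610), and Fancc had 131 in the numerator and 181 in the denominator library (ratio 0.711). Fanca had 86 reads in the numerator library, against 52 in the denominator library, and was 1.62-fold higher (interval 1.14 to 2.34). Fan1, a nuclease that FANCD2 recruits to crosslinks, had 544 reads in the numerator and 720 in the denominator library (ratio 0.742). None of these 5 genes passed 2-fold.

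**Figure D3:**
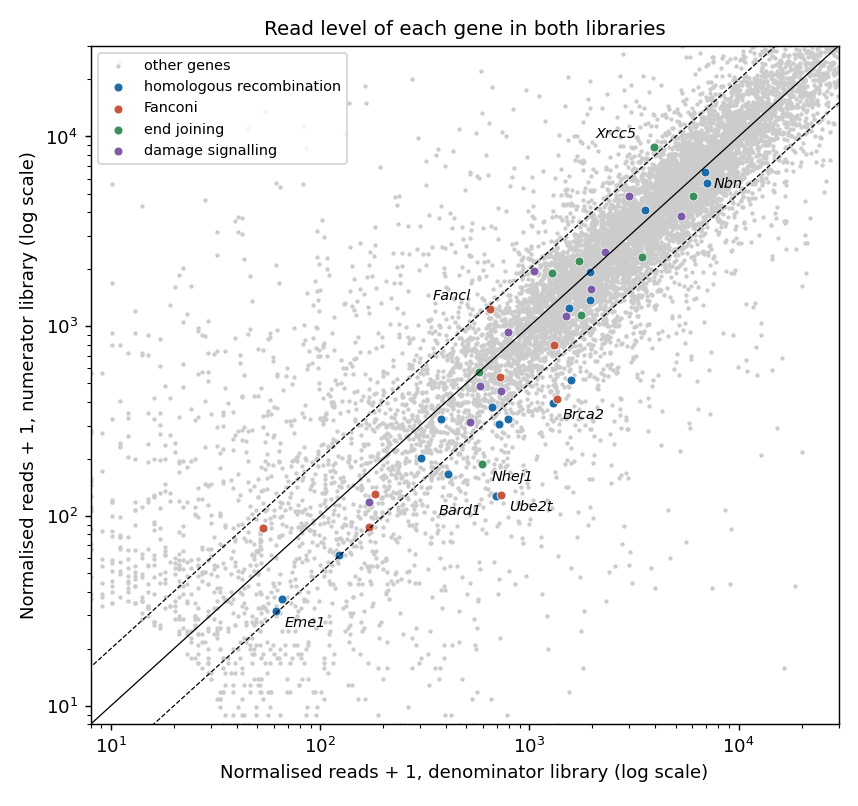
Normalised reads plus 1 of each gene in the denominator library (horizontal, log axis) and the numerator library (vertical, log axis), with all other genes of mean at least 20 that fall in the range drawn in grey; the solid line marks equal levels and dashed lines mark 2-fold. Bard1 and Ube2t lie together below the lower dashed line, and Xrcc5 is the 1 coloured point above the upper one.

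End joining genes had ratios on both sides of 1, with 4 of 8 below it. Ku80, encoded by Xrcc5, and Ku70, encoded by Xrcc6, form the ring that grips a broken end. Xrcc5 had 8865 reads in the numerator library, against 3890 in the denominator library, and was 2.24-fold higher (interval 2.16 to 2.32), the 1 gene of the 45 called higher; its reads are among those recovered through the deposited standard error. Xrcc6 had 4895 reads in the numerator and 5986 in the denominator library (ratio 0.803, interval 0.773 to 0.834). The numerator library thus held 1.81 reads of Xrcc5 per read of Xrcc6 and the denominator library 0.650, a ratio of 2.79 (Wald interval 2.64 to 2.94).

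XRCC4 and DNA ligase IV seal the ends, with XLF, encoded by Nhej1, bridging them. Xrcc4 had 1933 reads in the numerator library, against 1277 in the denominator library (ratio 1.49, interval 1.38 to 1.60), and Lig4 had 2215 in the numerator and 1705 in the denominator library (ratio 1.28, interval 1.20 to 1.36). Nhej1, by contrast, had 188 reads in the numerator and 589 in the denominator library, and was 3.19-fold lower (interval 2.70 to 3.78), or 4.74-fold fewer reads per read of Xrcc4 (Wald interval 3.97 to 5.67). The enzymes that trim and fill the ends stayed within the limit. Dclre1c, encoding the nuclease Artemis, had 579 reads in the numerator and 566 in the denominator library (ratio 1.00, interval 0.893 to 1.13). The gap-filling polymerase genes Polm and Poll had ratios of 0.653 and 0.669.

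Damage signalling genes stayed within 2-fold throughout, and Mdc1 and Atm had the highest ratios of the 11. Atm, the kinase that answers breaks, had 4899 reads in the numerator library, against 2981 in the denominator library, and was 1.61-fold higher (interval 1.54 to 1.69). Mdc1, the scaffold that binds marked chromatin at a break, had 1969 reads in the numerator and 1038 in the denominator library, and was 1.86-fold higher (interval 1.73 to 2.01). The ubiquitin ligases that act after it, Rnf8 and Rnf168, had ratios of 0.754 and 0.789, and their balance differed by less than counting error (ratio of Rnf8 per Rnf168 read 0.955, Wald interval 0.863 to 1.06).

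The checkpoint genes of stalled forks and the kinases downstream stayed within the limit as well. Atrip, the partner of the ATR kinase, had 486 reads in the numerator and 577 in the denominator library (ratio 0.827). Rad17, which loads the checkpoint clamp, had 3850 in the numerator and 5262 in the denominator library (0.719), and the clamp subunit Hus1 had 2489 in the numerator and 2287 in the denominator library (1.07). Chek2, the kinase downstream of ATM, had 314 reads in the numerator and 515 in the denominator library, and was 1.67-fold lower (interval 1.45 to 1.93). Chek1, the kinase downstream of ATR, had 936 in the numerator and 783 in the denominator library (ratio 1.17, interval 1.07 to 1.29). The fork proteins Clspn (119 reads in the numerator and 169 in the denominator library) and Timeless (459 reads in the numerator and 726 in the denominator library) had ratios of 0.692 and 0.621.

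Genes whose products act as partners were compared as reads of a gene per read of its partner, which cancels gene length when the libraries are set side by side. Of 17 such pairs, chosen with the ratios known, 5 differed at least 2-fold: Ube2t per Fancl, Nhej1 per Xrcc4, Fancb per Fancl, Bard1 per Brca1 and Xrcc5 per Xrcc6. Fancb per Fancl was 3.72-fold lower in the numerator library (Wald interval 2.82 to 4.90). The resection pair Nbn and Mre11a differed by less than counting error (ratio 0.949, interval 0.883 to 1.02), as did Rad51d and Rad51c (0.939, interval 0.795 to 1.11). These intervals say nothing of the spread between cultures.

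**Figure D4:**
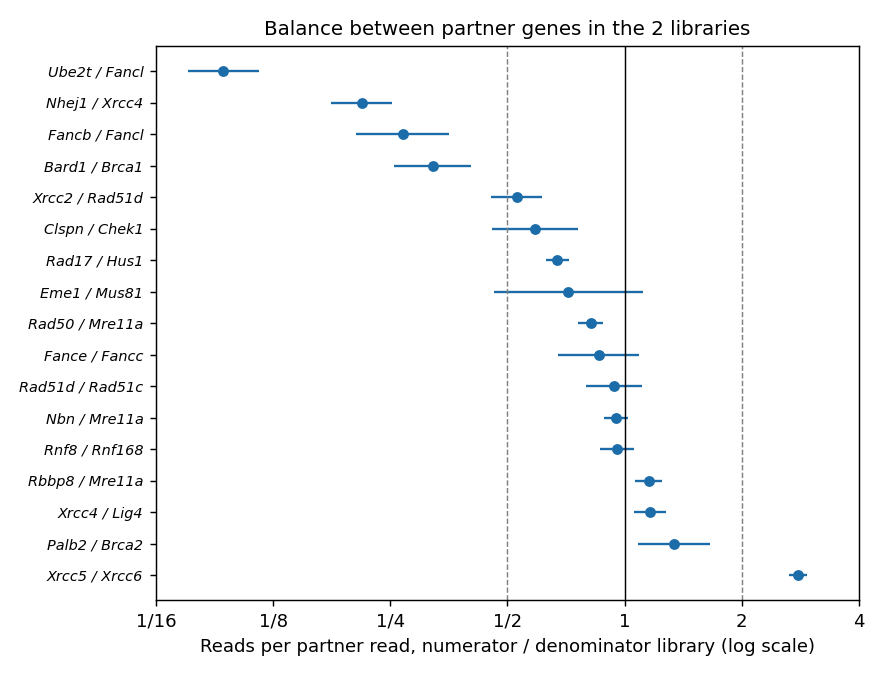
For 17 pairs of partner genes, reads of the first gene per read of the second in the numerator library divided by the same in the denominator library (log axis), with 95% Wald intervals of counting error and dashed lines at 2-fold. The pair of Ube2t and Fancl lies furthest left, 10.8-fold lower, and the Ku pair Xrcc5 and Xrcc6 furthest right at 2.79.

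Other genes of the same pathways, from a list of 61 in the table of which 59 reached the minimum, had 4 lower (6.78%, against 12.8% of all genes tested) and 1 higher (1.69%, against 13.9%), with a median log2 ratio of -0.16. The share of lower calls in this list was thus below that of all genes, and that difference was not tested. Polq, the polymerase of an error-prone joining route, had 58 reads in the numerator library, against 203 in the denominator library, and was 3.56-fold lower (interval 2.65 to 4.86). Slx1b, a structure-specific nuclease subunit, was 2.37-fold lower, Ppm1d, a phosphatase that shuts damage signals off, 2.30-fold lower and Paxip1, a break-binding adaptor, 2.12-fold lower. Cdkn1a, whose product p21 halts the cell cycle, was 3.42-fold higher.

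Since many repair genes, though not all, are known to be expressed in S and G2 phase, proliferation genes are set beside them. Of 29 such genes, 17 were lower in the numerator library (58.6%, against 12.8% of all genes tested). In the other direction 2 were higher (6.90%, against 13.9%), and the median log2 ratio was -1.12. Mki67 had 3553 reads in the numerator and 16504 in the denominator library, and Top2a had 1924 in the numerator and 9375 in the denominator library. The 2 called higher were Tyms (ratio 2.65) and Ccne1 (2.07). The replication genes among them were mixed: Mcm7 had a ratio of 0.284, Mcm2 of 0.415 and Cdt1 of 0.477. Mcm3, Mcm4, Mcm5, Mcm6 and Pcna had ratios from 1.10 to 1.43, and Cdc6 had 1.73. The part of the cell cycle in the values of the repair genes was not tested.

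The place of the genes on the chromosomes was read from RefSeq's GRCr8 annotation, which is not the build of the files and served only for the order of genes. All 4 genes on chromosome 4 (Xrcc2, Fancd2, Rad52 and Rad51ap1) were called lower. On that chromosome 136 of 617 genes tested were lower (22.0%) and the median log2 ratio was -0.38. Chromosome 7, which carries Timeless and Xrcc6, had a median of -0.57 over 729 genes. When ratios were centred on the median of each chromosome, Fancd2 and Rad52 stayed lower at -1.32 and -1.23, while Rad51ap1 and Xrcc2 stood at -0.91 and -0.84, inside the limit. Fancb, Rad54l and Eme1 then passed it at -1.08, -1.07 and -1.02. With them 10 of 45 were lower, a count given without a matching share of all genes. On the same scale Timeless stood at -0.12 and Xrcc6 at 0.25. The part of the chromosome in these values was not tested.

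The genes next to each repair gene are given by their own ratios. The median log2 ratio of the 5 nearest genes on each side lay between -0.54 (Mus81) and 0.55 (Gen1), and for 0 of 45 was it 2-fold from 1, where 2.32% of 11005 placed genes had such a median, a share under which a count of 0 or 1 among 45 says little. For some repair genes inside the limit that median lay near their own ratio: it was -0.54 around Mus81 (-0.50), -0.42 around Polm (-0.61), -0.41 around Timeless (-0.69) and 0.45 around Fanca (0.69). For others it did not: it was 0.55 around Gen1 (-0.60), 0.17 around Rad54l (-0.98), 0.17 around Clspn (-0.53) and -0.06 around Mdc1 (0.90). These genes are examples, and neither kind was counted. The 9 genes called lower had 17 direct neighbours, of which 3 were called lower and 3 higher. Of all genes tested, 12.8% were lower and 13.9% higher, so counts this small say little. The 3 higher ones were Cct8l1 beside Xrcc2 (log2 ratio 2.05) and Ppp1r12b and Ptprv beside Ube2t. The 3 lower ones were N4bp2l1 beside Brca2 (log2 ratio -2.99), which overlaps it in the annotation so that reads may be shared, Cyp27a1 beside Nhej1 (-2.06) and Actr3b beside Xrcc2 (-1.36). Paxip1, also lower at -1.09, is among the 5 nearest genes of Xrcc2. Around Ube2t the median was 0.49, with Ppp1r12b at 1.23 and Ptprv at 3.50 on either side. Bard1 and Xrcc5 stand within 5 tested genes of each other on chromosome 9 and had log2 ratios of -2.45 and 1.16, with the fibronectin gene Fn1 between them. Rad52 and its neighbour Wnk1, which overlap in the annotation and may share reads, stood at -1.61 and -0.39. Brca2, near a chromosome end, had neighbours on 1 side only, with a median of -0.27 over 5 genes. The part of the neighbourhood in these values was not tested.

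**Figure D5:**
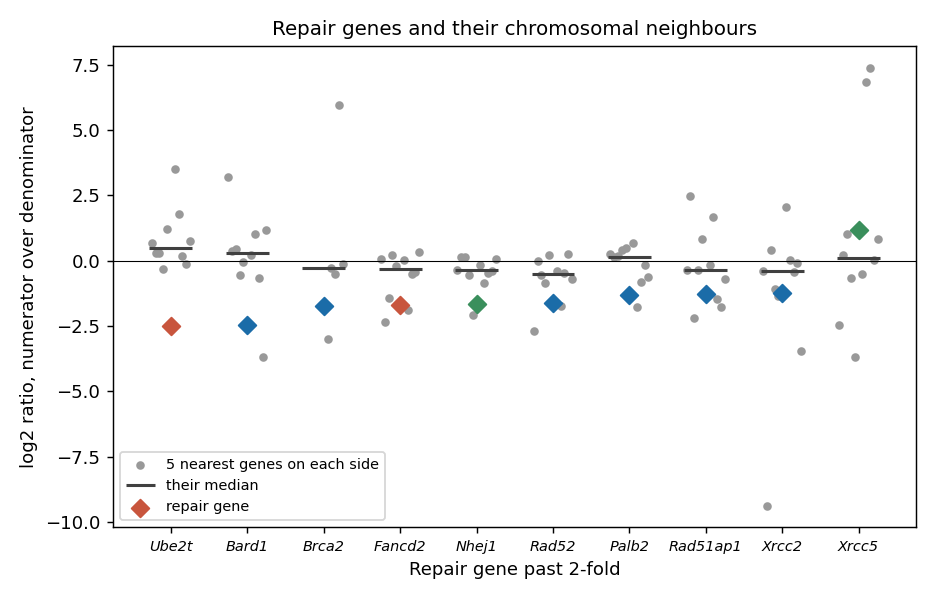
Log2 ratio (numerator over denominator library) of the 10 repair genes past 2-fold (diamonds, coloured by class as in the plot of ratios), of the 5 nearest tested genes on each side (grey points) and the median of those neighbours (bars). The medians lie between -0.51 and 0.49, while the diamonds lie at -1.22 or below, or at 1.16 for Xrcc5.

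The authors' deposited fold changes had the same sign as the recovered log2 ratio for 45 of 45 genes and were smaller in size for 45 of 45. The reads were recovered from that same deposit, whose fold changes match a ridge fit that shrinks them. Shared sign and smaller size are therefore no independent check. In the authors' deposited table the lowest p-value of these genes was 0.0983, for Ube2t, and no gene of the whole table had an adjusted p-value below 0.999.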

How the data were processed

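RNA was sequenced as single reads of 36 bp, per the labels' protocols. TopHat, FastQC, SAMtools, featureCounts and DESeq2 are named with the builds rn4 and rn5 in the submitters' processing notes. Their versions and settings, and the use of strand, were not given in the sources used here. The authors' deposited table holds, per the file headers, a mean normalised signal over both libraries, a log2 fold change with its standard error, a score (their quotient), and a p-value with its adjusted form. It has no value per library, so the size rule was applied to reads worked out from the means and fold changes.

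A deposited mean can only be the sum of whole reads of both libraries, each times a fixed step, and these steps gave size factors of 1.01 (numerator library) and 0.991 (denominator library). For 9307 of 13221 genes above 0 (70.4%), and 41 of the 45 repair genes, 1 pair of whole numbers met the mean. In 3914 genes several pairs did, Rad50, Nbn, Xrcc5 and Xrcc6 among them, and the pair whose ridge negative binomial fit matched the authors' standard error was chosen. For 102 of these, with a deposited fold change near no change, the pair with the nearest ratio was chosen without the standard error. Tested on simulated data of this comparison, made with the same fit, the recovery returned both counts for 4000 of 4000 genes, 1201 of them with several possible pairs.

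A pseudocount of 1 normalised read was added before log2 ratios, and none before folds. The genes, classes, lists and partner pairs were chosen with earlier results of these data known. The rule for named genes took all 45, those past 2-fold among the other pathway genes, and direct neighbours; the markers, the proliferation genes and Fn1 were named outside it, after their values were seen. In GRCr8, 13 of the 45 overlap another protein-coding gene (among them Brca2, Fancd2, Rad52, Nhej1, Fancl and Eme1), so their reads may be shared. Analyses used Python 3.11.15, NumPy 2.4.6, pandas 2.3.3 and SciPy 1.17.1.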

Additional observations from a re-analysis of the deposited data

How the results depend on the processing

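With 1 library per group no replicate could be left out. No paired analysis was possible because each group is 1 library. The median log2 ratio of the repair genes lay between -0.53 and -0.41 under each alternative run (no minimum, a minimum of 100 with 41 genes, library totals, the authors' deposited fold changes, without chromosomes 4 and 7 with 39 genes, pseudocounts of 0.5 and 5, genes with 1 possible pair of read counts with 41 genes, and centring on each chromosome). The mean of the 45 genes, in place of their median, was -0.51. Centring and the run on genes with 1 possible pair were chosen after seeing the data. Of the chromosomes that carry these genes, 4 and 7 have the lowest median log2 ratios in the same data (-0.38 and -0.57). The run without them is therefore no independent check. The end joining median (-0.15) turned to 0.09 with centring and to 0.01 without chromosomes 4 and 7. The recombination median (-0.83) stood at -0.52 on the deposited fold changes, and at -0.60 with a minimum of 100 and without those chromosomes. Lower and higher calls stood at 9 and 1 with no minimum, library totals and the deposited fold changes. Without chromosomes 4 and 7, 5 of 39 genes were lower (12.8%, against 11.4% of all genes tested elsewhere), among them 3 of recombination and 1 Fanconi gene. At 1.5-fold, 11 of 18 recombination genes were lower and 0 higher, and of 8 Fanconi genes 4 were lower and 2 higher. Of 8 end joining genes 2 were lower and 1 higher, and of 11 damage signalling genes 2 were lower and 2 higher. That gives 19 of 45 lower (against 22.8% of all genes) and 5 higher (against 22.6%). At 3-fold, 3 recombination genes were lower, and 0 genes were higher in all and in end joining. With genes of 1 possible pair only, 0 were higher, in all and in end joining, because Xrcc5 is not among them. With 3 neighbours on each side, 1 of 45 genes (Hus1, -1.19) had neighbours with a 2-fold median. Depth limits Eme1, Rad54b, Rad54l and Fanca most.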
